A study of Mus musculus with 219 samples.

Results

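This report follows 9 genes whose products store, adenylate or destroy maternal mRNA in the mouse egg and early embryo, namely Btg4, Cnot6l, Cnot7, Zfp36l2, Zar1, Zar1l, Ybx2, Pabpn1l and Cpeb1. They were chosen by symbol, for their known roles, with earlier results of these data known. Each of the 9 was found as 1 row among the 32285 genes counted in both blastomeres and blastocysts. The study placed a single sperm head at a predefined site of the oocyte by intracytoplasmic sperm injection (ICSI), either next to the meiotic spindle (ipsilateral, the animal pole), opposite to it (contralateral, the vegetal pole) or between both (equatorial), and asked whether the site changes gene expression in the resulting embryos and how alike their sister blastomeres are. All embryos had the genotype B6C3F1xCD1, from oocytes of hormone-primed B6C3F1 females aged 6 to 8 weeks and 1 cryopreserved batch of sperm from 2 CD1 males, so that all groups shared the same sires. The main groups were 2-cell embryos with both blastomeres sequenced singly, 21 after contralateral, 21 after ipsilateral and 13 after equatorial ICSI, twin blastocysts grown from the separated blastomeres of an embryo (pairs from 6 contralateral, 7 ipsilateral and 6 equatorial embryos), and intact blastocysts from embryos that were not bisected (11, 8 and 12).

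A growing oocyte makes mRNA in excess and keeps much of it silent with a short poly(A) tail, bound by storage proteins such as the cold-shock protein Ybx2 (also called MSY2) and the zygote arrest proteins Zar1 and Zar1l. At meiotic maturation the element-binding protein Cpeb1 controls the lengthening of selected tails, while the CCR4-NOT complex, with the deadenylases Cnot6l and Cnot7, begins to strip the tails of others. Btg4 joins that complex to its targets as an adaptor, Zfp36l2 recruits it to AU-rich messages, and Pabpn1l, an egg-type poly(A)-binding protein, binds Btg4.

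The cytoplasmic polyadenylation element (CPE) is the site in a 3′ end that Cpeb1 binds, and the members' own messages were searched for it because several of these factors are themselves made from stored mRNA. TTTTAT or TTTTAAT, read on the transcript strand of the principal transcript in GENCODE M21 of GRCm38, was present in the last 100 bases of 3 of the 9 members and in those of 3560 of 21466 coding genes (16.6%). The 30 bases around each match are given from 5′ to 3′ with the match in capitals.
Btg4: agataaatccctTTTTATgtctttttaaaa
Cnot7: tcttaaggtacaTTTTATatcaataaaaat
Ybx2: cctctgaagccaTTTTATgaactgtcatgt
These lie at chr9:51119797-51119826 on the plus strand, chr8:40493038-40493067 on the minus strand and chr11:69941532-69941561 on the plus strand, each in the 3′-terminal exon. The element stood 61, 14 and 56 bases from the annotated end of the principal transcript of Btg4, Cnot7 and Ybx2. Of these 3 transcripts only that of Cnot7 also had a poly(A) signal in its last 40 bases. The annotated gene of Cnot7 reaches further 3′, to chr8:40492540, and that end was not searched, so the Cnot7 values hold for the principal transcript. A match is a run of letters and not evidence of binding, and the other 6 members had no match in this window.

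All 9 messages were present in 2-cell embryos, and Btg4 was by far the most abundant of them. With both sisters summed and counts divided by exonic length (TPM, scaled to the same sum in each embryo), Btg4 stood at 1955 ± 223 TPM (SD, n = 55 embryos), and its lowest embryo (1521 TPM) lay above the highest value of any other member. Cnot7 followed with 430 ± 69.6 TPM, Cnot6l with 342 ± 38.5 TPM and Ybx2 with 304 ± 82.6 TPM. Neighbours among these 3 had overlapping ranges, 304 to 608 TPM for Cnot7, 256 to 423 TPM for Cnot6l and 141 to 492 TPM for Ybx2. The remaining 5 were lower and overlapped one another, with 97.9 ± 58.6 TPM for Zar1l, 67.2 ± 45.9 TPM for Pabpn1l, 62.8 ± 41.1 TPM for Zfp36l2, 57.7 ± 23.7 TPM for Zar1 and 38.6 ± 12.8 TPM for Cpeb1. Exonic length was the union of the annotated exons, so that genes whose embryonic transcripts are shorter than this union are understated on this scale. Poly(A) tails were not measured, and the part of tail length in the counts of this report was not tested.

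The depth behind these values was a median of 1340425 counts per blastomere (360474 to 2100561, n = 110), 1093478 per twin blastocyst (713410 to 2161062, n = 38) and 705837 per intact blastocyst (234099 to 1254428, n = 31). In CPM, a count scaled to the total of its library (counts per 1e6), 7 zygotic activation genes summed to between 353 and 1255 in the 2-cell embryos and to at most 13.3 in blastocysts, and 8 trophectoderm genes summed to between 83.1 and 418 in the former and between 3627 and 7524 in the latter. Both lists were thus high in the stage that the labels give, and the 7 activation genes were those of a list of 10 that were counted. The 8 epiblast genes overlapped, at 138 to 525 CPM in 2-cell embryos, 458 to 873 in twin and 32.05 to 648 in intact blastocysts. The 6 primitive endoderm genes had 202 to 396, 721.5 to 964 and 382 to 970 CPM in the same order. The 10 oocyte genes had 3557 to 5220 CPM in 2-cell embryos and at most 690.5 CPM in blastocysts. The 2-cell embryos came from 2 plates, plate 1 with 18 contralateral, 13 ipsilateral and 11 equatorial embryos and plate 2 with 3, 8 and 2, whereas all blastocysts were on plate 2. Equatorial 2-cell embryos were shallower, with a median of 2179479 counts against 2675357 in the contralateral and 3050508 in the ipsilateral group, and had fewer detected genes per blastomere (a mean of 11461 against 12018 and 12080). Among the intact blastocysts, 4 of 31 had under 9500 detected genes, the minimum applied to blastomeres.

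**Figure D1:**
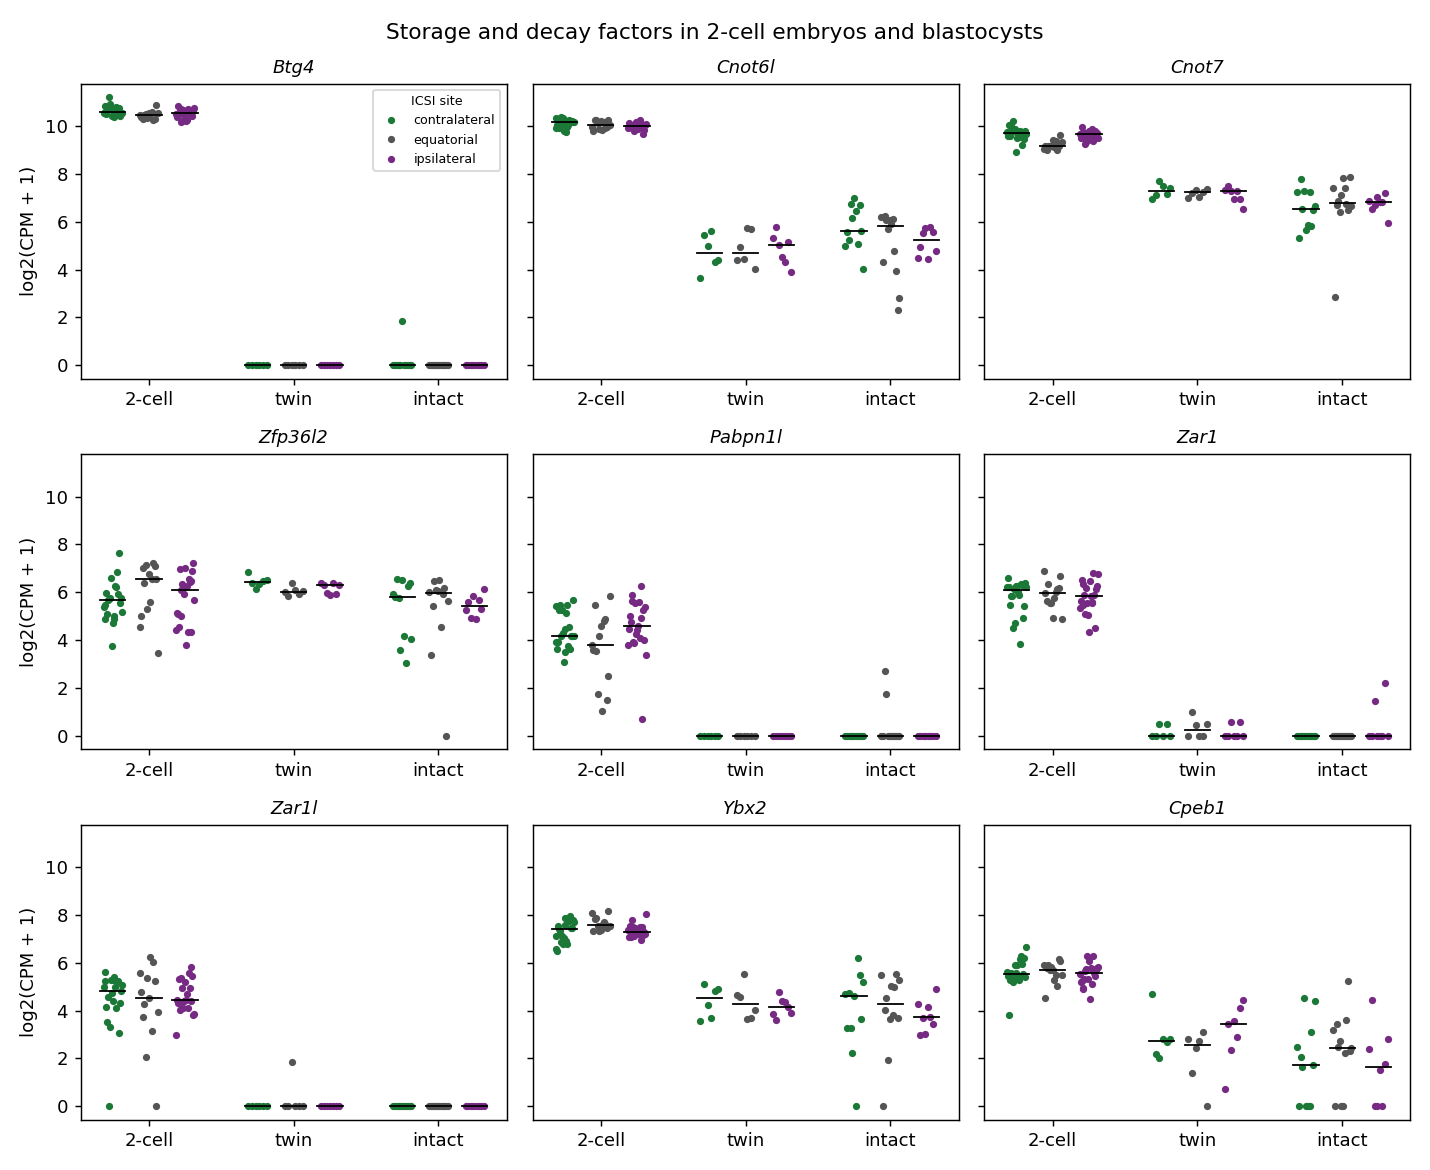
Level of each member as log2(CPM + 1) per embryo in 2-cell embryos (sisters summed), twin pairs (summed) and intact blastocysts, coloured by ICSI site, with a black line at each group's median. Btg4, Pabpn1l, Zar1 and Zar1l sit at or close to 0 in blastocysts, Cnot6l, Cnot7, Ybx2 and Cpeb1 are lower than in 2-cell embryos but present, and the values of Zfp36l2 overlap between the stages.

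Cnot7 was the 1 member that differed between ICSI sites in 2-cell embryos, higher after either polar ICSI than after equatorial ICSI. Cnot7 is the CAF1-type catalytic subunit of the CCR4-NOT deadenylase and the subunit to which BTG and TOB proteins bind. It was measured at 485, 826 and 1199 CPM (lowest, median and highest of 21 embryos) after contralateral ICSI, at 606, 802 and 1008 CPM (n = 21) after ipsilateral ICSI and at 507, 576 and 792 CPM (n = 13) after equatorial ICSI. The groups overlapped, but 20 of 21 contralateral and 21 of 21 ipsilateral embryos lay above the equatorial median, and 13 and 11 of them above the highest equatorial embryo. The mean was 598 ± 79.1 CPM (SD) in the equatorial and 835 ± 154 CPM in the contralateral group.

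In edgeR's quasi-likelihood test on summed counts, with the plate in the model and p-values adjusted by Benjamini-Hochberg over 13141 genes, Cnot7 was 1.4-fold higher after contralateral ICSI (log2 difference 0.49, SE 0.08, adjusted p = 5.6e-05) and 1.3-fold higher after ipsilateral ICSI (0.38, SE 0.09, adjusted p = 0.00321). The background of this test is wide, since 13.2% of all genes tested were called between contralateral and equatorial ICSI (936 higher and 797 lower) and 6.65% between ipsilateral and equatorial ICSI (451 higher and 423 lower). A count of 1 of 9 members called in each comparison is near that background, so the result concerns Cnot7 and not the group, and both comparisons share the same 13 equatorial embryos. Both calls were also made in each of the 9 alternative analyses, with log2 differences from 0.38 to 0.57 and from 0.34 to 0.43. Depth moved with the site, as given above, and with library size and detected genes as covariates the differences were 0.50 (adjusted p = 0.000248) and 0.42 (adjusted p = 0.027).

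Within plate 1 the means of Cnot7 were 841 ± 163 CPM (n = 18) in the contralateral, 777 ± 110 CPM (n = 13) in the ipsilateral and 575 ± 53.8 CPM (n = 11) in the equatorial group, and the test on plate 1 alone gave log2 differences of 0.57 (edgeR, adjusted p = 2.93e-05) and 0.43 (adjusted p = 0.00404). In plate 2 the means were 801 ± 100 CPM (n = 3), 825 ± 98.2 CPM (n = 8) and 722 ± 98.9 CPM (n = 2). The equatorial mean was the lowest there too, while the ipsilateral mean was above the contralateral one, and with 2 equatorial embryos plate 2 was not tested by itself. Of the exonic bases of Cnot7, 247 (4.24%) are shared with Zdhhc2 on the opposite strand, and the counting was without strand, so that reads from these bases could not be assigned.

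**Figure D2:**
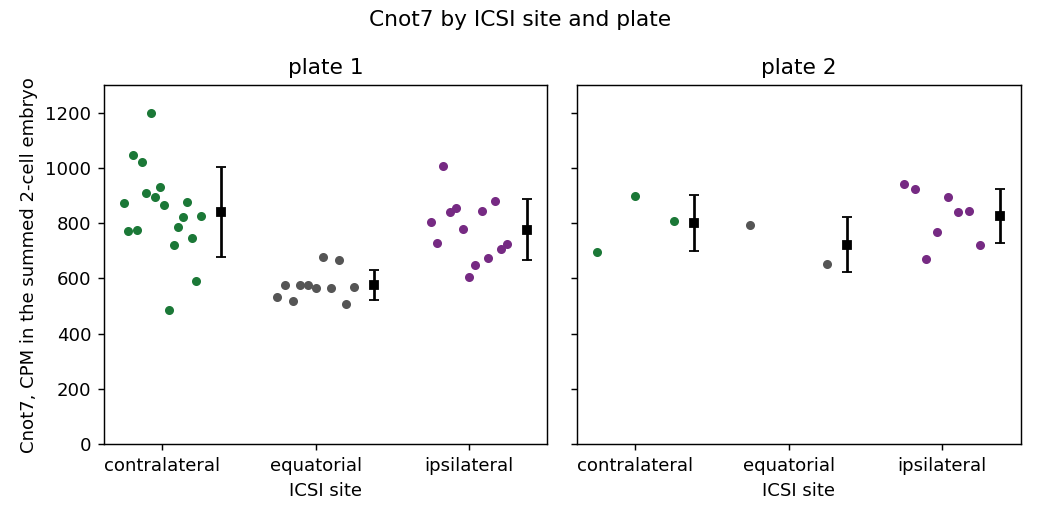
Cnot7 in CPM per summed 2-cell embryo by ICSI site, separately for plates 1 and 2, with squares and bars for mean and SD. On plate 1 the equatorial embryos lie between 507 and 679 CPM and most polar embryos above them, and on plate 2 there are 2 equatorial embryos, at 652 and 792 CPM.

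Btg4, the adaptor that binds Cnot7, had a higher estimate in contralateral embryos that was close to the threshold but not called. Its values were 1323, 1553 and 2376 CPM (lowest, median and highest) after contralateral, 1153, 1485 and 1844 CPM after ipsilateral and 1225, 1402 and 1885 CPM after equatorial ICSI. The contralateral group reached above the equatorial range in 2 embryos and the rest overlapped. The log2 difference was 0.19 (SE 0.07, edgeR adjusted p = 0.0797) for contralateral minus equatorial, which passed the threshold in 5 of 9 alternative analyses (adjusted p between 0.00692 and 0.359 over all of them), and 0.03 (SE 0.07, adjusted p = 0.908) for ipsilateral minus equatorial. Plate 1 by itself was 1 of those 5, with 0.28 (edgeR, adjusted p = 0.0116). In plate 2 the order was the opposite, with means of 1452 ± 60.3 CPM (n = 3) in the contralateral and 1699 ± 263 CPM (n = 2) in the equatorial group. The lowest equatorial embryo there (1513 CPM) lay above the highest contralateral one (1494 CPM), and plate 2 was not tested by itself.

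Cnot6l, the CCR4-type deadenylase of the complex, had nearly the same level at each site. It stood at 857, 1140 and 1330 CPM (lowest, median and highest) in the contralateral, 817, 1040 and 1204 CPM in the ipsilateral and 882, 1071 and 1238 CPM in the equatorial group. Its log2 differences from equatorial embryos were 0.07 (95% interval -0.05 to 0.19) and -0.08 (-0.20 to 0.05), neither called, so that a change as large as that of Cnot7 lies outside both intervals.

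Ybx2, which coats and stabilizes maternal mRNA, had lower estimates in both polar groups, just short of the threshold and called in neither. It measured 87.8, 171 and 246 CPM (lowest, median and highest) after contralateral, 121.2, 157 and 259 CPM after ipsilateral and 161, 190 and 283 CPM after equatorial ICSI. In all, 10 of 21 contralateral and 12 of 21 ipsilateral embryos were below the lowest equatorial embryo. The log2 differences were -0.32 (SE 0.12, edgeR adjusted p = 0.0641) and -0.36 (SE 0.12, adjusted p = 0.0606). The former passed the threshold in 0 of 9 alternative analyses (adjusted p between 0.0569 and 0.19) and the latter in 2 of 9 (between 0.0121 and 0.523). Over all genes tested, 26% and 19.6% had an unadjusted edgeR p under 0.05 in these comparisons.

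Zfp36l2 and Pabpn1l varied so widely between embryos that their differences between sites had standard errors of 0.32 to 0.40. Zfp36l2, which brings the deadenylase to AU-rich elements, ranged from 12.4 to 201 CPM after contralateral, from 12.96 to 150 CPM after ipsilateral and from 10.1 to 147 CPM after equatorial ICSI, with log2 differences from equatorial embryos of -0.53 (SE 0.32) and -0.35 (SE 0.34). Pabpn1l ranged from 7.45 to 50.1, from 0.624 to 76.2 and from 1.03 to 56.6 CPM in the same order, with log2 differences of 0.38 (SE 0.39) and 0.61 (SE 0.40). Both genes therefore spanned more than 10-fold within the equatorial group, and neither was called.

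The zygote arrest genes and Cpeb1 showed no called difference either. Zar1 had medians of 67.9, 55.8 and 61.02 CPM in contralateral, ipsilateral and equatorial embryos, Zar1l of 27.2, 20.98 and 21.8 CPM, and Cpeb1 of 45.1, 47.1 and 50.98 CPM. Their log2 differences from equatorial embryos lay between -0.17 and 0.01 with standard errors of 0.19 to 0.41, and the ranges of the 3 sites overlapped for each gene.

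Between contralateral and ipsilateral ICSI no member was called, and neither was any other gene (0% of 13141 by edgeR and 0 by DESeq2, although 555 and 683 had an unadjusted p under 0.05). The largest of the members' differences relative to their errors were those of Cnot6l (log2 difference 0.15, SE 0.06, unadjusted p = 0.0114) and Btg4 (0.16, SE 0.07, unadjusted p = 0.0185), both with an adjusted p of 1. The median of the 9 members was 0.01, -0.12 and 0.08 for contralateral minus equatorial, ipsilateral minus equatorial and contralateral minus ipsilateral.

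**Figure D3:**
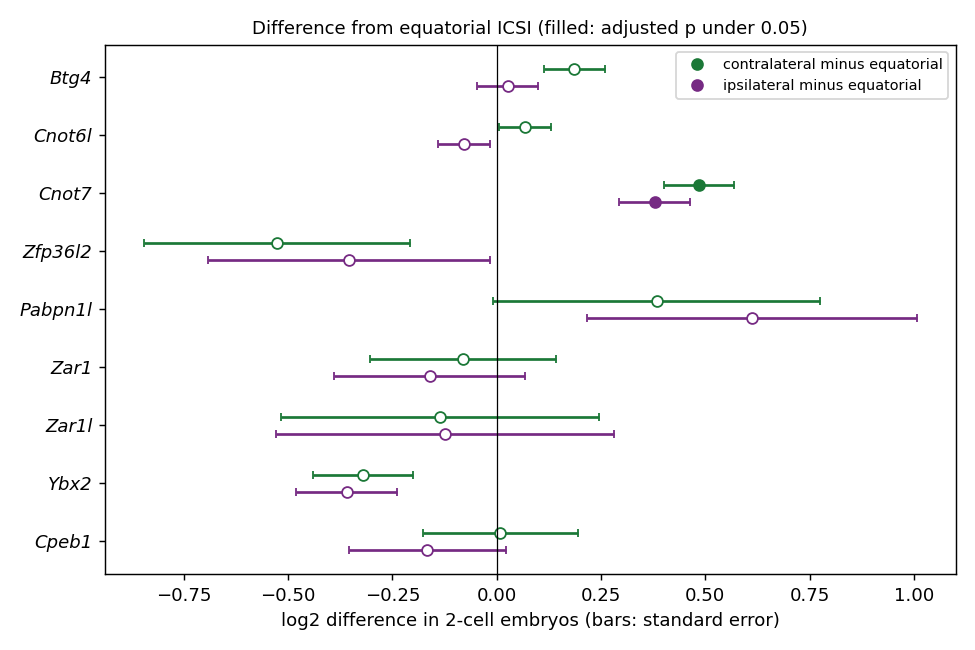
Log2 difference of each member from equatorial ICSI in 2-cell embryos (edgeR, bars are standard errors), contralateral in green and ipsilateral in purple, filled where the adjusted p is under 0.05. The filled points are those of Cnot7, at 0.49 and 0.38, and the Ybx2 points lie below 0 on both sides.

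The wider machinery moved in both directions. Of 64 further genes in 4 lists (deadenylation, decapping and decay, storage and translation, poly(A) binding and synthesis), 61 were tested, of which 2 were higher and 8 lower after contralateral than after equatorial ICSI, and 2 higher and 5 lower after ipsilateral ICSI, against the percentages of all genes given above. The list of deadenylation genes had 3 of 18 lower and 0 higher after contralateral ICSI, and 1 of 18 lower and 0 higher after ipsilateral ICSI. Of all genes tested, 6.06% and 3.22% were lower in these comparisons. Tob2, another BTG/TOB adaptor of Cnot7, was the gene with the smallest p of the lists in both comparisons, at 169 ± 61.4 CPM (n = 21) in contralateral, 188 ± 35.6 CPM (n = 21) in ipsilateral and 316 ± 98.4 CPM (n = 13) in equatorial embryos. Its log2 differences were -0.92 (SE 0.14, edgeR adjusted p = 1.47e-05) and -0.78 (SE 0.15, adjusted p = 0.000585). Cnot7 was thus higher and this partner of it lower in the same polar groups.

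Of 7 genes tested in the list of poly(A)-binding proteins and poly(A) polymerases, 2 were lower and 0 higher in each comparison with equatorial embryos, where 6.06% (contralateral) and 3.22% (ipsilateral) of all genes tested were lower. Pabpc4 fell by 0.61 (SE 0.11, edgeR adjusted p = 8.06e-05) and by 0.40 (SE 0.11, adjusted p = 0.0182) on the log2 scale in contralateral and ipsilateral embryos, and Pabpc1 fell by 0.58 (SE 0.16, adjusted p = 0.0141) in ipsilateral embryos. Among storage and translation genes, Dazl, a germ-cell activator of translation, was higher after contralateral ICSI (log2 difference 0.72, SE 0.14, adjusted p = 0.000267), while the mRNA-binding Igf2bp3 was lower (-0.54, SE 0.12, adjusted p = 0.00101). After ipsilateral ICSI the oocyte cap-binding protein Eif4e1b was lower (-0.57, SE 0.15, adjusted p = 0.0143), as was Rbpms2 (-0.29, SE 0.07, adjusted p = 0.00965). Lsm1, of the ring that leads deadenylated mRNA to decapping, was higher after contralateral ICSI (0.53, SE 0.12, adjusted p = 0.00141). These genes were named by the smallest p in each comparison, so a gene named after 1 polar ICSI is not thereby particular to it. Mean levels follow for contralateral, ipsilateral and equatorial embryos in that order. Dazl had 567, 494 and 348 CPM, Lsm1 267, 255 and 186 CPM, and Igf2bp3 160, 179 and 231 CPM. Pabpc1 had 163, 181.5 and 255 CPM, Eif4e1b 145, 124.5 and 179.5 CPM, and Rbpms2 479, 448 and 536 CPM. Between the polar groups 0 of 61 were called.

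Sister blastomeres agreed closely in the abundant decay factors and loosely in the rest. The median absolute log2 difference of log2(CPM + 1) between the sisters of 55 embryos was 0.12 for Btg4, 0.14 for Cnot6l, 0.23 for Cnot7 and 0.29 for Ybx2, that is a median ratio of 1.09-fold, 1.11-fold, 1.17-fold and 1.22-fold. It was 0.50 for Cpeb1, 0.72 for Zar1l, 0.83 for Zar1, 0.94 for Zfp36l2 and 1.11 for Pabpn1l. The first 4 genes had a mean of 173 CPM or more and the last 5 of 66.7 CPM or less, and abundance moved with agreement over all genes tested as well, with a median difference of 0.73 for genes with a mean from 30 to 100 CPM, 0.34 in the next class of abundance and 0.15 for the 56 most abundant genes. Zfp36l2 and Zar1 lay above, and Cpeb1 below, the value of their own class of abundance.

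Unrelated blastomeres of the same site and plate differed more than sisters for 8 of the 9 members. Over all 13141 genes tested the medians were 0.87 between sisters and 0.99 between unrelated blastomeres, so this direction was not particular to the members. The median over 1272 unrelated pairs was 0.20 for Btg4, 0.18 for Cnot6l, 0.27 for Cnot7 and 0.40 for Ybx2, and 1.17 for Zfp36l2 against 0.94 between sisters. For Zar1 both were alike, 0.83 between sisters and 0.82 between unrelated blastomeres. The intraclass correlation of sisters, after centring by site and plate, was 0.47 for Btg4, 0.44 for Cnot6l and Ybx2, 0.30 for Zfp36l2, 0.28 for Zar1l, 0.27 for Cnot7, 0.22 for Zar1 and 0.21 for Pabpn1l, where the median of all genes tested was 0.13. This median moved with abundance too. It was 0.13 for genes with a mean from 30 to 100 CPM, 0.28 in the next class and 0.41 for the 56 most abundant genes. Btg4 and Cnot6l lay close to their class, Cnot7 just under its own and Ybx2 above. For Cpeb1 the correlation was 0.00, the only member under the median of all genes tested, and a single equatorial pair with a difference of 5.22 entered that value. Sisters share plate and handling, so these figures describe agreement and do not separate its sources.

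**Figure D4:**
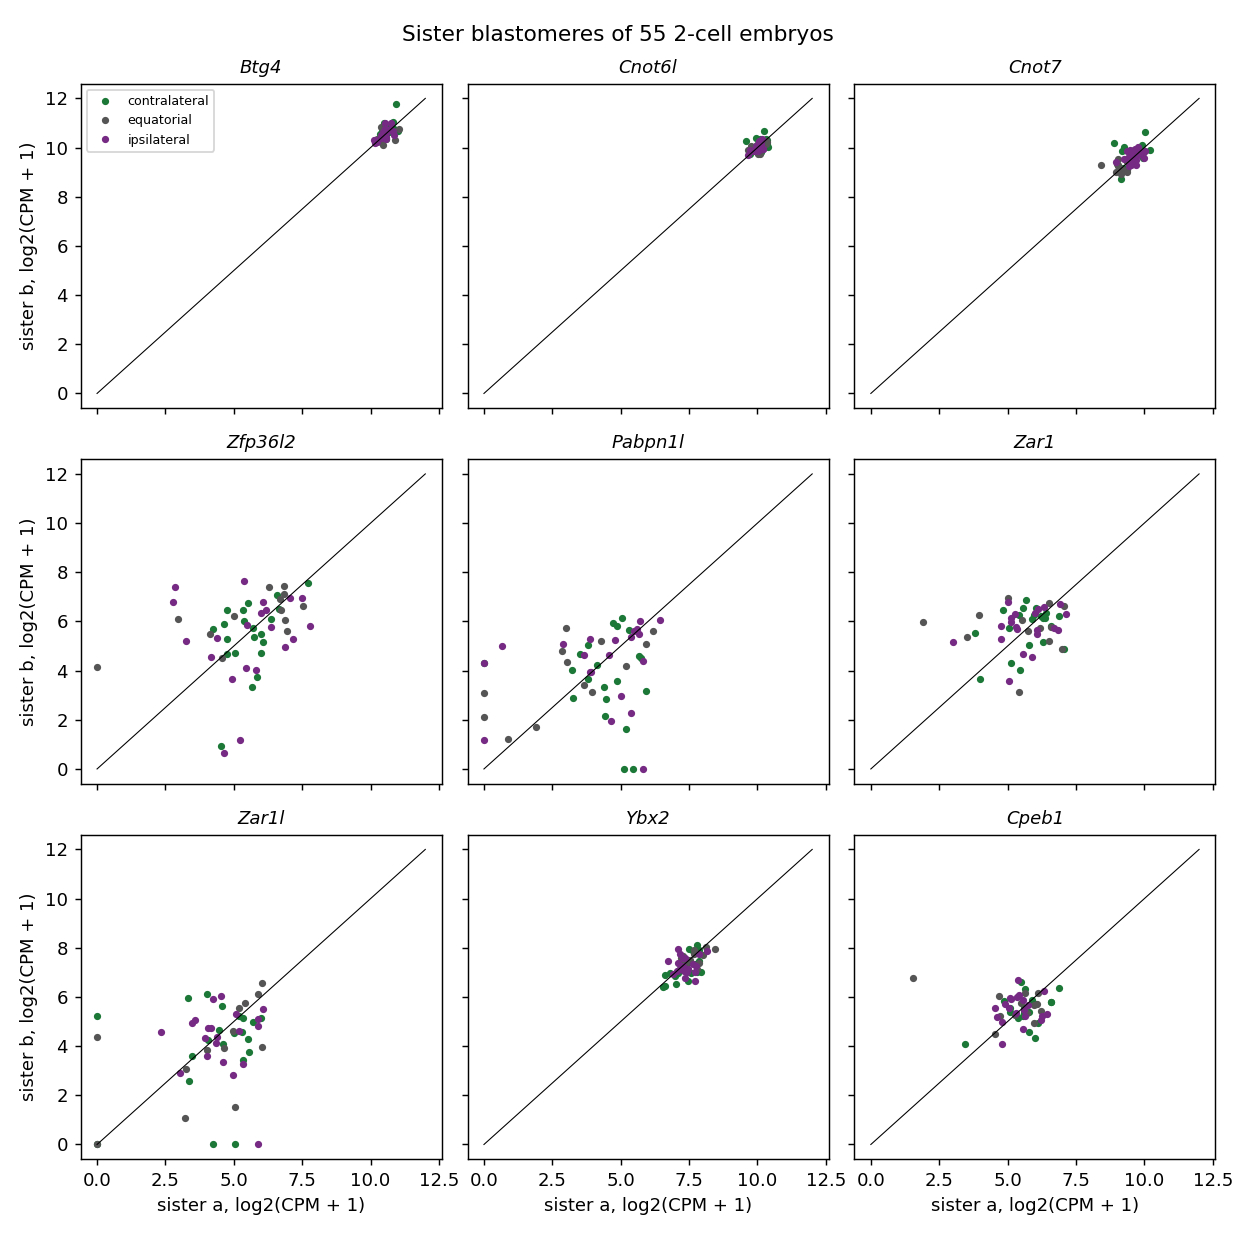
Both sisters of each of 55 embryos as log2(CPM + 1), 1 panel per member, coloured by ICSI site, with the line of equality. Btg4, Cnot6l, Cnot7 and Ybx2 form a compact cloud on the line, while Zfp36l2, Pabpn1l, Zar1 and Zar1l scatter widely and some blastomeres sit at 0.

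Complete loss of a message in 1 sister was rare and confined to the low genes in these libraries. Pabpn1l had a count of 0 in 1 sister of 8 of 55 pairs, with 3 contralateral, 3 ipsilateral and 2 equatorial, and Zar1l in 1 sister of 5 pairs and in both sisters of 2. Zfp36l2 was at 0 in 1 sister of 1 pair, and each of the other 6 members was counted in all 110 blastomeres. A count of 0 in a library of this depth does not show that the message was absent from the cell.

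The distance between sisters did not depend detectably on the ICSI site for any of the 9 members. The median absolute difference of Cnot7 was 0.23 in contralateral, 0.20 in ipsilateral and 0.24 in equatorial pairs, and that of Btg4 was 0.13, 0.12 and 0.13. Zar1 had the largest equatorial value relative to the polar groups, with medians of 0.74, 0.88 and 1.32. The difference of its means was -0.63 (SE 0.29) for contralateral minus equatorial pairs in limma's test, with an unadjusted p of 0.0319 and an adjusted p of 0.418. No member was called in any of the 3 comparisons. Of 13141 genes limma called 0.259% for contralateral minus equatorial (0 higher and 34 lower) and 0.221% for ipsilateral minus equatorial (1 higher and 28 lower). It called 0% for contralateral minus ipsilateral. In the same order 1354, 1545 and 632 genes had an unadjusted limma p under 0.05. Equatorial embryos were shallower, the fit held the plate but not the depth, and the part of depth in these differences was not tested. In simulated differences, drawn with 1 spread for all genes and not from counts, a doubled sister difference was called in 14% of the genes that had it. Smaller effects of the site would mostly be missed in that setting. The members' differences had SDs from 0.13 (Cnot6l) to 1.49 (Pabpn1l), so the share need not hold for each of them.

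**Figure D5:**
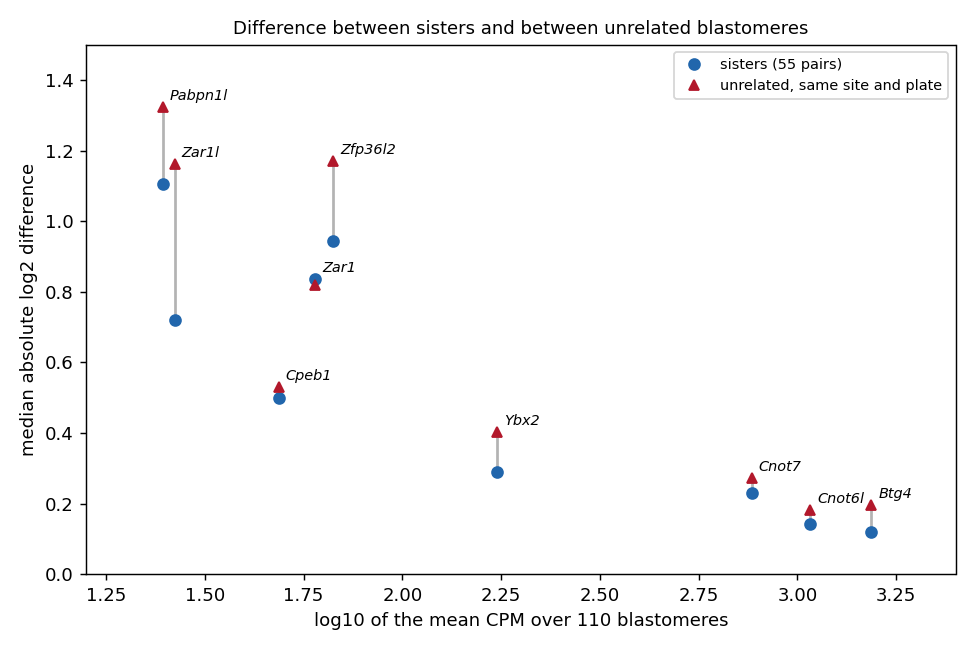
Median absolute log2 difference between sisters (circles) and between unrelated blastomeres of the same site and plate (triangles) for each member, against the log10 of its mean CPM over 110 blastomeres, which stands for the counts behind it. The differences shrink from 1.11 for Pabpn1l to 0.12 for Btg4, and only for Zar1 is the circle not below the triangle.

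Over the 55 embryos, centred per plate, pairs of members varied together in either direction. The 36 pairs had a median Spearman correlation of 0.03, from -0.53 to 0.62. Their median absolute value was 0.166, against 0.116 over all genes tested, which were not matched to the members in abundance. The highest was that of Btg4 with Cnot7 (0.62), followed by Btg4 with Cnot6l (0.46) and Ybx2 with Cpeb1 (0.40), and the lowest that of Cnot7 with Ybx2 (-0.53). With the values centred by site as well, Btg4 with Cnot7 was 0.67 and Cnot7 with Ybx2 was -0.33. All values of an embryo share its libraries and total, so these are descriptions without a test. The 3 genes outside the group that followed the mean standardized profile of the members most closely were Slc4a8 (0.69), Mrpl48 (0.68) and Mllt3 (0.68), over the same 55 embryos.

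By the blastocyst stage the members had fallen to very different extents, from Btg4, with a single count left, to Zfp36l2, which was not called in twins. In a fit of all embryos with stage and ICSI site, 9 of 9 members were lower in intact blastocysts than in 2-cell embryos and 8 of 9 in twin blastocysts, where 85.1% and 83.7% of the 14228 genes tested were called, 48% and 46.9% as lower. Btg4, Zar1, Zar1l and Pabpn1l passed the filter on low counts only through their level in 2-cell embryos, so the count and the median describe the members and support nothing by themselves. The median log2 change of the members was -4.77 to intact and -5.49 to twin blastocysts, against -0.35 over all genes in both, and the medians were the same with genes at 0 counts set to their bounds. Values are relative to the total RNA of each library, and in a blastocyst of several cell types fewer cells with a message and less of it per cell cannot be told apart. Stage coincided with the count table, and most 2-cell embryos were on another plate than the blastocysts, which cannot be told apart from stage in the whole set. With plate 2 alone (13 2-cell embryos) 7 of the 7 members that passed the filter were lower in intact blastocysts, with log2 changes between -13.98 and -0.74, and 9337 of the 12077 genes tested were called in either direction. Some of these members again passed the filter only through their 2-cell level.

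The Btg4 message was at or next to 0 counts in blastocysts. It went from between 1153 and 2376 CPM in the 55 2-cell embryos to a single count in 1 of 31 intact blastocysts and 0 counts in 38 twin libraries. Summed over groups it was 33343-fold higher in 2-cell embryos than in intact blastocysts, with a counting interval from 5984 to 1316969 around that 1 count (exact Poisson, 95%, counting error only). Against twins it was at least 21920-fold higher, taking 3 counts over the group as the floor.

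Zar1, Zar1l and Pabpn1l were also at or close to 0 counts in blastocysts. Zar1 had 4 counts in 2 of 31 intact blastocysts, both ipsilateral, and 9 counts in 7 of 19 twin pairs. Its summed level was 335-fold higher in 2-cell embryos than in the former and 293-fold (counting interval 154 to 641) higher than in the latter. Zar1l had 0 counts in all intact blastocysts, which makes the 2-cell level at least 200-fold higher, and 7 counts in a single twin pair of the equatorial group (169-fold, 82.1 to 421). Pabpn1l had 6 counts in 2 equatorial intact blastocysts (92.9-fold, 42.7 to 253) and 0 in the twins (at least 366-fold).

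The deadenylases were reduced but kept. Cnot6l went from 817, 1077 and 1330 CPM (lowest, median and highest of 55 2-cell embryos) to 4.01, 46.99 and 125.1 CPM in 31 intact blastocysts and 11.4, 29.7 and 54.6 CPM in 19 twin pairs. The stages did not overlap, and the log2 changes were -4.77 (SE 0.15, edgeR adjusted p = 1.93e-54) and -5.49 (SE 0.20, adjusted p = 4.12e-50). Cnot7 went from 485, 774 and 1199 CPM to 6.30, 104.7 and 236 CPM in intact and 92.8, 152 and 209 CPM in twin blastocysts, again without overlap, with changes of -2.99 (SE 0.12, adjusted p = 5.66e-46) and -2.71 (SE 0.14, adjusted p = 7.34e-36).

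Ybx2 and Cpeb1 remained at low levels. Ybx2 went from a median of 173 CPM (87.8 to 283) to 15.4 CPM (0 to 73.3) in intact and 17.7 CPM (10.9 to 44.9) in twin blastocysts, and each blastocyst was below each 2-cell embryo. The changes were -3.36 (SE 0.18, edgeR adjusted p = 2.23e-35) and -3.50 (SE 0.22, adjusted p = 2.98e-30) on the log2 scale. Cpeb1 went from 47.1 CPM (13.1 to 100) to 3.74 CPM (0 to 36.2) and 5.95 CPM (0 to 25.0), and here the ranges overlapped. It was at 0 in 10 of 31 intact blastocysts and 1 of 19 twin pairs, and its changes were -3.31 (SE 0.31) and -3.06 (SE 0.35), both called.

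Zfp36l2 behaved differently from the other 8. Its 2-cell levels of 10.1, 53.5 and 201 CPM (lowest, median and highest) were followed by 0, 52.6 and 93.1 CPM in intact and 56.1, 76.9 and 113 CPM in twin blastocysts, so that each twin pair lay within the range of the 2-cell embryos. The change to intact blastocysts was -0.74 (SE 0.21, edgeR adjusted p = 0.000678), where the median gene moved by -0.35 under TMM scaling, and -0.44 (adjusted p = 0.0417) with library size alone, where the median gene moved by -0.06. The change to twins was -0.20 (SE 0.23, adjusted p = 0.409), with the opposite sign (0.16, adjusted p = 0.513) with library size alone, where the median gene moved by 0.01. Of the exonic bases of Zfp36l2, 2.97% are shared with a gene on the other strand, AC132455.1. The spread of Zfp36l2 was wide among 2-cell embryos (66.8 ± 42.9 CPM, SD, n = 55) and narrower among twin pairs (74.6 ± 14.4 CPM, n = 19).

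The rest of the machinery changed in both directions at this transition. Of 63 genes tested in the 4 lists, 19 were higher and 37 lower in intact blastocysts, with a median of -0.96. Over all 14228 genes tested 37.1% were called higher and 48% lower, with a median of -0.35. The lists were not tested against that background. Eif4e1b went from 146 ± 48.1 CPM (SD, n = 55) to 0.0331 ± 0.184 CPM (n = 31), the drop with the smallest p of the lists. The translational repressor Lsm14a fell from 619 ± 55.2 to 147 ± 55.7 CPM, the decapping enzyme Dcp2 from 529 ± 108.6 to 87.7 ± 42.3 CPM and Rbpms2 from 480 ± 71.7 to 41.3 ± 36.8 CPM, all called by edgeR with log2 changes of -2.36, -2.90 and -3.91. In contrast Caprin1, a component of RNA granules in dividing cells, rose from 144 ± 34.7 to 663 ± 151 CPM (log2 change 1.92, SE 0.07, adjusted p = 2.94e-49). As a yardstick, 10 of 10 oocyte marker genes were called lower, with a median log2 change of -8.86. Several of them, with Oosp1 and Oog1 at 0 counts in all 31 intact blastocysts, passed the filter on low counts only through their 2-cell level. Their count and median therefore describe these genes and support nothing by themselves.

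Whether the difference in Cnot7 persisted was asked in blastocysts of the same ICSI groups. In twin pairs Cnot7 stood at 122.2, 156 and 209 CPM (lowest, median and highest of 6) after contralateral, 92.8, 155 and 181 CPM (n = 7) after ipsilateral and 125.2, 149 and 164 CPM (n = 6) after equatorial ICSI. In intact blastocysts it stood at 38.5, 92.3 and 221 CPM (n = 11), 60.96, 112.5 and 148 CPM (n = 8) and 6.30, 110.7 and 236 CPM (n = 12) in the same order. The groups overlapped in both kinds of blastocyst. Contralateral minus equatorial differences were 0.16 (95% interval -0.48 to 0.81) in twins and -0.26 (-0.75 to 0.23) in intact blastocysts, and ipsilateral minus equatorial differences were -0.06 (-0.68 to 0.57) and -0.29 (-0.83 to 0.24). These intervals rest on 1 estimate of spread shared by twins and intact blastocysts. Cnot7 varied less among twins (149 ± 27.03 CPM, SD, n = 19 pairs) than among intact blastocysts (115.5 ± 53.8 CPM, n = 31). The intervals can therefore be too wide for twins and too narrow for intact blastocysts. Those of the twins include the 2-cell estimates of 0.49 and 0.38, so this fit did not decide persistence of the difference there. Those of intact blastocysts end below these estimates. The 2-cell estimates had 95% intervals of their own, 0.321 to 0.649 (contralateral) and 0.213 to 0.545 (ipsilateral). On the shared spread, the ipsilateral one overlaps that of intact blastocysts and the contralateral one does not. This contrast between the sites is stated for that spread only. A change of the site difference between stages was not tested.

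The other 4 members that passed the filter on low counts in blastocysts, Cnot6l, Zfp36l2, Ybx2 and Cpeb1, were not called between sites either, and the remaining 4 were too low to be tested. In twins edgeR called 0% of 10689 genes in contralateral minus equatorial, 0% in ipsilateral minus equatorial and 0% in contralateral minus ipsilateral (41, 66 and 62 of them had an unadjusted p under 0.05), with 0 calls by DESeq2 in each. Twins and intact blastocysts shared 1 estimate of spread here. With the twins fitted apart 728, 426 and 754 genes had an unadjusted p under 0.05, again with 0 calls. In intact blastocysts 0.168%, 0% and 0.0187% of the genes were called in the same order of comparisons (in the middle one 855 had an unadjusted p under 0.05 and DESeq2 called 23). No difference of the site effect between twin and intact blastocysts was called for the 5 members, with 0% of the genes called for contralateral minus equatorial and 0% for ipsilateral minus equatorial (290 and 220 had an unadjusted p under 0.05, and DESeq2 made 0 calls).

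Twin and intact blastocysts differed in Cnot6l. The message was lower in twins, with 30.3 ± 14.02 CPM (n = 19 pairs) against 49.2 ± 29.97 CPM (n = 31), a log2 difference of -0.71 (SE 0.25, edgeR adjusted p = 0.0202) in a comparison that called 40.7% of all genes. The groups overlapped, and 1 of the 5 members tested was called. Zfp36l2 was at 74.6 ± 14.4 CPM in twins and 49.9 ± 27.1 CPM in intact blastocysts (0.52, SE 0.22, edgeR adjusted p = 0.0508, and 0.0149 to 0.95 over 5 alternatives, of which 3 passed the threshold). Cnot7 stood at 149 ± 27.03 and 115.5 ± 53.8 CPM (0.31, SE 0.17, edgeR adjusted p = 0.139), Ybx2 at 20.1 ± 9.02 and 20.6 ± 16.4 CPM, and Cpeb1 at 7.49 ± 6.57 and 5.98 ± 8.33 CPM. Depth moved with this comparison, since the twin pairs summed to between 1676976 and 3095134 counts and no intact blastocyst had more than 1254428. With library size and detected genes as covariates the edgeR difference of Cnot6l was -0.15 (adjusted p = 0.895), that of Ybx2 moved from -0.06 to -1.71 (adjusted p = 0.0568) and that of Cpeb1 from 0.24 to 1.40 (adjusted p = 0.496). In that fit 1021 genes were called, and the kind of blastocyst and the depth cannot be told apart.

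Twin blastocysts of 1 embryo differed more than 2-cell sisters did in Cnot7, Cnot6l, Ybx2 and Cpeb1 and less in Zfp36l2. The counts behind the first 4 were also fewer in blastocysts, and their part in this was not tested. Over 19 pairs the median absolute log2 difference was 0.37 for Cnot7, 0.52 for Zfp36l2, 0.63 for Cnot6l, 0.76 for Ybx2 and 1.16 for Cpeb1, where all 10689 genes tested had a median of 0.50. It was 0.47 for genes with a mean from 30 to 100 CPM and 0.25 in the next class of abundance. Zfp36l2 and Cnot6l lay above the former, their own class, and Cnot7 above the latter, its own. Cnot6l (mean 30.5 CPM) and Cnot7 (149 CPM) were near the lower end of their classes, and position within a class was not accounted for. Twins were closer than unrelated blastocysts of the same site for Cnot6l (0.86 over 204 unrelated pairs) and Cpeb1 (1.63), but not for Cnot7 (0.33), Zfp36l2 (0.39) or Ybx2 (0.70). Over all genes tested the median between unrelated blastocysts was 0.55. The intraclass correlation was 0.44 for Cnot6l, 0.23 for Ybx2, 0.14 for Cnot7, -0.06 for Cpeb1 and -0.50 for Zfp36l2, with a median of 0.10 over all genes tested. Cnot6l thus had an intraclass correlation of 0.44 at both stages, and Cpeb1 was near 0 at both. A change of this correlation between stages was not tested.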

How the data were processed

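Single blastomeres and single blastocysts were sequenced as full-length cDNA (SMART-Seq Single Cell kit, Nextera XT). The authors trimmed the reads (Trimmomatic), cut paired-end reads to the first 100 bases of read 1, aligned them without strand with STAR 2.7.10b to GRCm38 and deposited whole-number counts per gene, not normalized, for 125 blastomeres and 69 blastocysts. A second deposited matrix, named as deduplicated, equals these counts in every entry, so it gave no separate value and whether the counts used are raw or deduplicated is unknown. Libraries carry no molecular identifiers, so several reads can stem from 1 cDNA molecule. The Poisson intervals treat each read as separate, cover the counting of reads only and may be too narrow.

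Groups, sisters and plates came from the sample labels. Blastomeres with at least 9500 detected genes and a kept sister (55 of 62 pairs) and blastocysts with at least 4000 were used. Counts of sisters or twins were summed, and the embryo was the replicate. CPM and TPM (union of exons, GENCODE M21, 32235 genes with a length) were computed here. Tests were edgeR 4.0.16 (quasi-likelihood, TMM, filterByExpr, robust, threshold 0.05 after Benjamini-Hochberg adjustment), with plate for 2-cell embryos, 6 cell means for blastocysts and stage plus site for both, and limma 3.58.1 on absolute sister differences of log2(CPM + 1). Intervals of 95% use the normal quantile and the SE. Alternatives were DESeq2 1.42.0 and the settings given in the closing section. R was 4.3.3, Python 3.11.15, pandas 2.3.3, scipy 1.17.1 and matplotlib 3.10.9.

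The scripts were tested on simulated counts with 2-fold changes, of which edgeR recovered 38.9% (contralateral minus equatorial), 31% (ipsilateral minus equatorial) and 48.1% (contralateral minus ipsilateral) in 2-cell embryos, 11.7% in twin and 24.9% in intact blastocysts (contralateral minus equatorial), and 58.2% between 2-cell embryos and intact blastocysts. The genes named are the 9 members in each comparison, the 5 genes of the 4 pathway lists with the smallest p among those called in each 2-cell comparison and in the change to intact blastocysts, and the 3 genes most like the members' mean profile. Members and lists were chosen with earlier results of these data known.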

Additional observations from a re-analysis of the deposited data

Results flagged for a closer look

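In the groups of 6 to 8 embryos, 25 sets of member values could be tested for a value far from the others. Chance marks about 1 in 20 such sets where values spread normally. Low counts with many values at 0 do not spread in this way, so the number of marks cannot be set against that rate. The 4 values found were each the highest of a low message in blastocysts. Cpeb1 had 20.9 CPM (12 counts) in 1 intact ipsilateral blastocyst, where the next was at 5.98 CPM, and 25.0 CPM (46 counts) in 1 contralateral twin pair, where the next was at 5.97 CPM. Zar1 had 3.67 CPM (3 counts) in 1 intact ipsilateral blastocyst with the next at 1.71 CPM. Zar1l had 2.58 CPM (7 counts) in 1 equatorial twin pair, while the other 5 pairs were at 0. With all others at 0 any count is marked, whatever its size.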

How the results depend on the processing

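Cnot7 was called against equatorial embryos in each of the 9 alternatives, and over the alternative values of single members 661 kept direction and side of the threshold, 10 came to pass it, 1 no longer passed it and 35 changed sign. In 2-cell embryos 216 of 243 member values kept both, and in blastocysts 242 of 252. Counts of calls moved by more than 1.5 times as follows. Testing every gene with a count gave 3930 (contralateral minus equatorial), 2603 (ipsilateral minus equatorial) and 1577 (contralateral minus ipsilateral, 0 in the filtered set) in 2-cell embryos, 18266 and 18444 for the change to intact and twin blastocysts, and 1 for intact contralateral minus ipsilateral. The 48 pairs under 2% mitochondrial counts gave 1104 for contralateral minus equatorial. With library size and detected genes as covariates there were 61 calls for ipsilateral minus equatorial in 2-cell embryos, 0 for intact contralateral minus ipsilateral and 1021 for twin minus intact. Sister differences had 22 and 12 calls against equatorial pairs with a pseudocount of 5, 48 with 0.5 (ipsilateral), and 16 and 4 on plate 1 alone. In intact blastocysts DESeq2 made 175, 23 and 59 calls (contralateral minus equatorial, ipsilateral minus equatorial, contralateral minus ipsilateral). Chosen after seeing the data, intact blastocysts fitted apart gave 0, 0 and 0, and those with at least 9500 detected genes 1, 3 and 4. The causes were not tested.

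In 35 values that were not called the sign changed. For contralateral minus equatorial 2-cell embryos these were, by the rank-sum test on TPM, Cnot6l (-0.03) and Cpeb1 (-0.07), under the mitochondrial limit Zar1 (0.09), Zar1l (0.34) and Cpeb1 (-0.02), and on plate 1 alone Cpeb1 (-0.03). For ipsilateral minus equatorial they were Btg4 by rank-sum (-0.02), Cnot6l (0.05) and Zfp36l2 (0.13) with depth covariates and Zar1l under the mitochondrial limit (0.12). For contralateral minus ipsilateral they were Zfp36l2 on plate 1 (0.06) and with all pairs (0.09), Zar1 by rank-sum (-0.01), Zar1l without plate (0.01), with depth covariates (0.14), on plate 1 (0.15) and under the mitochondrial limit (0.22), and Ybx2 with depth covariates (-0.04), on plate 1 (-0.01) and by rank-sum (-0.02). Sister differences changed sign on plate 1 alone for Cpeb1 (0.12, 0.19 and -0.07 in the 3 comparisons), Zar1l (-0.41) and Pabpn1l (-0.25) for ipsilateral minus equatorial and Zar1 (0.02) for contralateral minus ipsilateral. They also did for Pabpn1l with a pseudocount of 0.5 (-0.04) and Cpeb1 without plate (-0.05). With depth covariates Cnot6l was 0.01 and 0.09 in twins against equatorial ICSI, Zfp36l2 0.20 in intact contralateral minus equatorial (0.00 fitted apart), Cnot7 -0.02 in intact contralateral minus ipsilateral and Ybx2 -0.05 in the ipsilateral difference between twin and intact blastocysts. Zfp36l2 was 0.16 from 2-cell embryos to twins with library size alone. Plate 2 was not fitted by itself for 2-cell embryos. Zar1l was at 0 in 9 and Pabpn1l in 8 of 110 blastomeres, and the part of depth in these zeros was not tested.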
